A study of Mus musculus with 6 samples.

Results

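Germline genes are kept silent in somatic cells by repressors that act at their promoters, and 10 of these repressors were measured in mouse Sertoli cell lines that did or did not express a GFP reporter on the Y chromosome. They are 7 genes of the Polycomb complex PRC1.6 (E2f6, Mga, Max, L3mbtl2, Pcgf6, Rybp and Cbx3) and 3 genes for histone H3 lysine 9 methyltransferases (Setdb1, Ehmt1 and Ehmt2). They were taken by gene name from tables of 49203 named genes, and the level of each gene was the sum over the transcripts that carry its name. All 10 were found, and all 10 passed the filter on low values, a mean of at least 0.5 over the 6 libraries.

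Sertoli cells are somatic cells that nurse germ cells through spermatogenesis inside the testis tubule. The libraries held total RNA, depleted of ribosomal RNA, from cell lines labelled GFP-positive (replicates 2, 4 and 7) or GFP-negative (replicates 9, 11 and M), which gives 3 libraries in each of 2 groups. The labels give no treatment, strain, age or other allele, do not say what drives the reporter, and do not say whether a replicate is a clone, a culture or an animal. A p-value here is thus set only by how far these samples spread, and that spread could be technical. The question is whether repressor levels differ between reporter-expressing and non-expressing lines.

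PRC1.6 is led to DNA by sequence-specific subunits: E2F6 with a DP partner recognises E2F sites, and MGA pairs with MAX on E-boxes. PCGF6 holds the RING1 ubiquitin ligases that mark histone H2A, while L3MBTL2, RYBP and the HP1 protein CBX3 complete the complex. SETDB1 and the EHMT1/EHMT2 pair (GLP and G9a) methylate H3 lysine 9, a mark that CBX3 can bind, and loss of either arm in mouse cells is known to release meiotic and germ cell genes.

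The letters that these DNA-binding subunits read can be seen in 4 promoters of genes known to be held silent in this way: Hormad1, Ddx4 and Sycp3, which act in germ cells and meiosis, and Tuba3b, a testis tubulin. Each line gives the 150 bases before the gene's start in the RefSeq promoter set (build GRCm38.p6), 5′ to 3′ on the gene's strand. Capitals mark GGCGGGAA, the longer E2F6-type site, its core GCGGGA where it stands alone, their reverse complements, and the E-box CACGTG.
Hormad1, chr3:95559527-95559676, plus strand: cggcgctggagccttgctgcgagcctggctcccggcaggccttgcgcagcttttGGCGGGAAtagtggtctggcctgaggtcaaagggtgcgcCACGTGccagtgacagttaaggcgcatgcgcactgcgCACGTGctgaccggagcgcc
Ddx4, chr13:112652311-112652460, minus strand: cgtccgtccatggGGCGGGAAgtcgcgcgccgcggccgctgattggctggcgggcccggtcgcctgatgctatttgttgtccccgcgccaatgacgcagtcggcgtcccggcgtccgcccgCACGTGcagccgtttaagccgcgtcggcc
Sycp3, chr10:88459437-88459586, plus strand: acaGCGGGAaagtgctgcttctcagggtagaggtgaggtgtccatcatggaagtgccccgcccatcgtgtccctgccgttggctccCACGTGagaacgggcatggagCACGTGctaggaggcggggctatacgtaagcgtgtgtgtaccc
Tuba3b, chr6:145615813-145615962, plus strand: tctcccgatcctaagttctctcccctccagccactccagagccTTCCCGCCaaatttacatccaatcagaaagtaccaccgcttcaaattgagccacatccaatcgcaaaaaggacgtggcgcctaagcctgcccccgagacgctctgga
Hormad1 and Ddx4 hold both kinds of letters, Sycp3 holds the core and 2 E-boxes, and Tuba3b holds only the longer site, written on the other strand.

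Windows of 250 bases before to 50 bases after the start were searched on both strands for 24 such germline genes, of which 22 had a window (all but Tex11 and Majin). GCGGGA was in 12 of the 22 (54.5%), against 22.0% of all 27025 genes with a window. CACGTG was also in 12 of the 22 (54.5%), against 8.09% of all genes. Both were in 7 of the 22 (31.8%), against 2.65%. GGCGGGAA, which contains GCGGGA, was in 5 of the 22 (22.7%), against 2.52%. Of the repressor genes themselves 9 had a window (all but Rybp): E2f6, Ehmt1 and Ehmt2 held GCGGGA, Max and Ehmt2 held CACGTG, and none held GGCGGGAA. A match is a description of letters and not of binding.

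None of the 10 repressors passed the test between GFP-positive and GFP-negative libraries (limma, Benjamini-Hochberg adjusted p under 0.05), where 20.4% of all 18921 tested features did. The adjusted p-values ran from 0.0904 for Rybp to 0.774 for L3mbtl2. With an unadjusted p under 0.05 stood 3 of the 10 (Pcgf6, Rybp and Ehmt1), against 38.7% of all features. The libraries of the groups did not overlap for 4 of the 10 (Pcgf6 above, Mga, Rybp and Ehmt1 below), against 43.2% of all features (22.4% above and 20.7% below). Of the 10 differences 5 were positive and 5 negative, with a median of 0.002 on the log2 scale beside 0.014 over all features. Differences are GFP-positive minus GFP-negative in log2(scaled FPKM + 0.5), a scale that understates changes of low genes. In bulk RNA fewer cells of a type and less RNA per cell cannot be told apart.

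**Figure D1:**
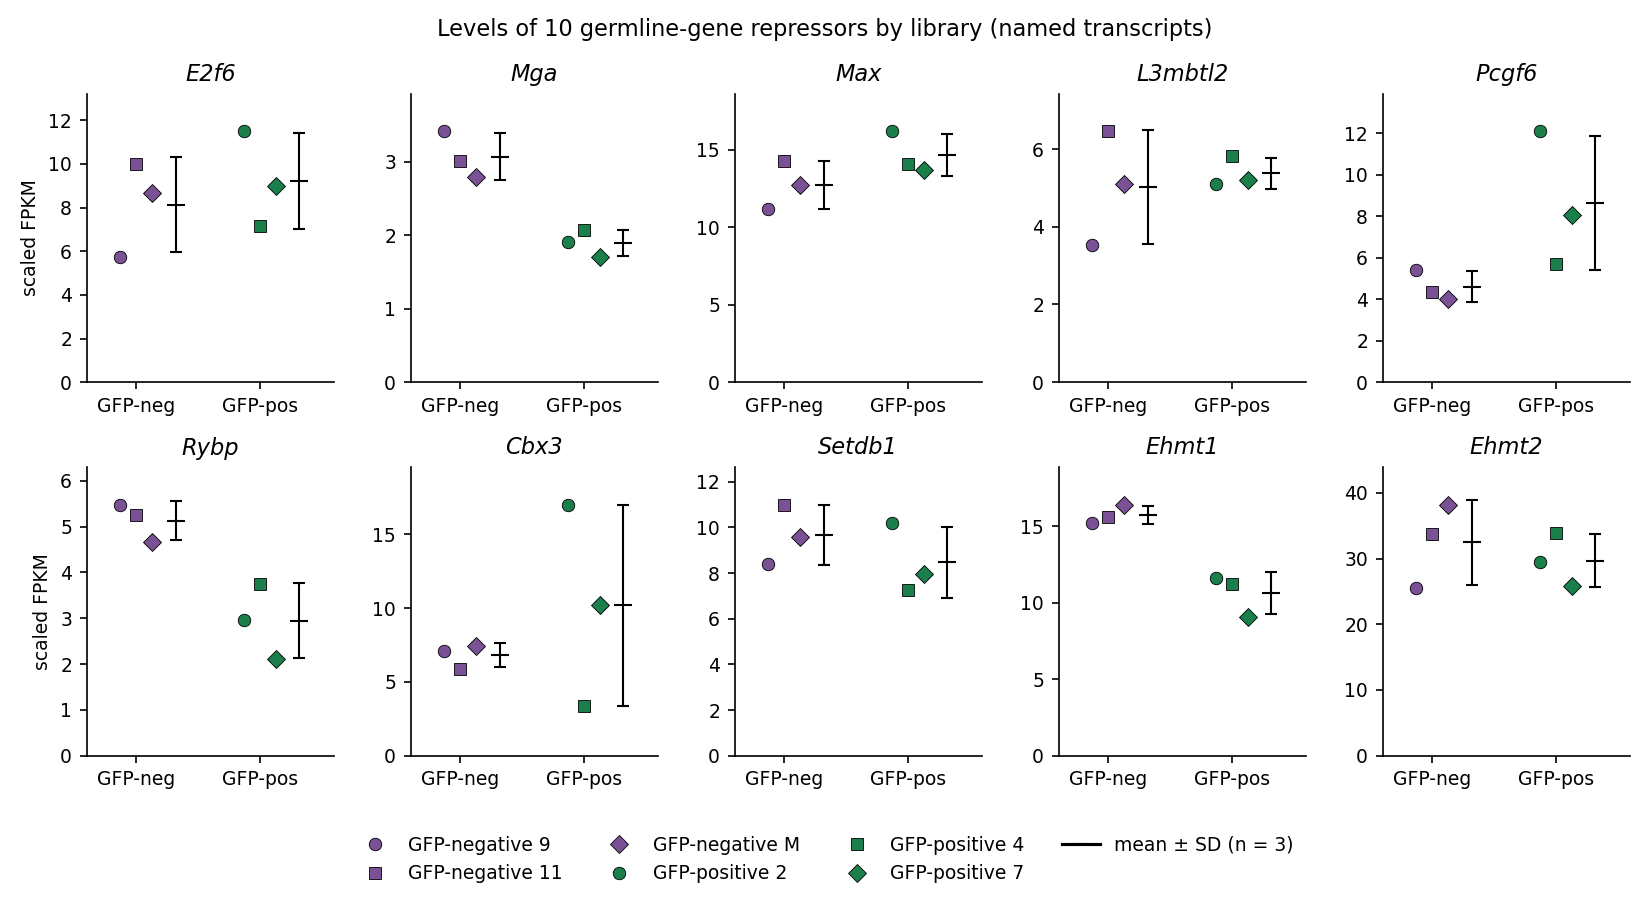
Scaled FPKM of the 10 repressors (vertical axes, each from 0) in 3 GFP-negative and 3 GFP-positive libraries; points are libraries and bars are mean ± SD. The groups separate for Pcgf6, Mga, Rybp and Ehmt1 and overlap for the other 6 genes.

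E2f6, an E2F that lacks an activation domain (chr12:16860964-16889743, plus strand, mm39), read 11.5, 7.14 and 9.01 scaled FPKM in GFP-positive libraries 2, 4 and 7. It read 5.74, 10 and 8.67 in GFP-negative libraries 9, 11 and M. The groups overlapped, with a mean of 9.22 ± 2.19 against 8.14 ± 2.18 (SD, n = 3 each) and a log2 difference of 0.18 (SE 0.30, adjusted p = 0.685). The 95% interval of that difference, -0.51 to 0.87, leaves room for a change in either direction.

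Mga, the scaffold with a T-box and a MAX-binding domain (chr2:119727709-119802503, plus strand), was the lowest of the 10 by named transcripts. Its named transcripts read 1.91, 2.07 and 1.71 in the GFP-positive libraries and 3.42, 3.01 and 2.79 in the GFP-negative ones. Every GFP-positive library lay below every GFP-negative one, yet the log2 difference of -0.58 (SE 0.25) had an adjusted p of 0.130. Max, the partner that MGA shares with MYC (chr12:76984043-77008975, minus strand), read 16.2, 14.1 and 13.7 against 11.2, 14.3 and 12.7. Its log2 difference was 0.20 (SE 0.23, adjusted p = 0.544), with overlapping groups.

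L3mbtl2, a histone-binding MBT-repeat protein (chr15:81548090-81572516, plus strand), read 5.10, 5.83 and 5.20 against 3.53, 6.46 and 5.10. The log2 difference was 0.12 (SE 0.28, adjusted p = 0.774). Pcgf6, the subunit that defines this PRC1 variant (chr19:47022056-47039345, minus strand), read 12.1, 5.72 and 8.05 in the GFP-positive libraries and 5.43, 4.37 and 4.02 in the GFP-negative ones. All 3 GFP-positive libraries were higher, the closest pair being 5.72 and 5.43. Its fold of 1.73 (log2 difference 0.79, SE 0.32, 95% interval 0.06 to 1.52) was the largest positive difference among the 10 and had an adjusted p of 0.107.

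Rybp, which stimulates RING1 ligases and is shared by PRC1 variants (chr6:100205526-100264446, minus strand), read 2.97, 3.75 and 2.11 against 5.48, 5.25 and 4.67. All GFP-positive libraries lay below the GFP-negative ones, with means of 2.94 ± 0.82 and 5.13 ± 0.416 (SD, n = 3 each). The log2 difference was -0.74 (SE 0.28, 95% interval -1.37 to -0.10, adjusted p = 0.0904). Cbx3, which encodes HP1 gamma (chr6:51447340-51460684, plus strand), read 17.0, 3.34 and 10.2 against 7.08, 5.90 and 7.46. GFP-positive libraries 2 and 4 were the highest and the lowest of all 6, so the mean of 10.2 ± 6.83 has a wide error (log2 difference 0.30, SE 0.51, adjusted p = 0.689). Without GFP-positive 2 the difference was -0.16.

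Among the methyltransferases, Setdb1, which KRAB zinc finger proteins recruit through TRIM28 (chr3:95230836-95264513, minus strand), read 10.2, 7.26 and 7.94 against 8.39, 11.0 and 9.59. Its log2 difference was -0.19 (SE 0.25, adjusted p = 0.606). Ehmt1, or GLP (chr2:24679940-24809626, minus strand), read 11.6, 11.2 and 9.08 against 15.2, 15.6 and 16.4. The groups stood apart, at 10.6 ± 1.37 and 15.7 ± 0.604 (SD, n = 3 each), with a log2 difference of -0.55 (SE 0.23, adjusted p = 0.118). Ehmt2, or G9a (chr17:35117445-35133028, plus strand), read 29.4, 33.9 and 25.8 against 25.5, 33.7 and 38.2, a log2 difference of -0.12 (SE 0.26, adjusted p = 0.765).

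By level, Ehmt2 stood first at 31.1 ± 5.04 (SD over the 6 libraries), and its lowest library (25.5) lay above the highest library of every other member (17.0, Cbx3). Max (13.7 ± 1.68) and Ehmt1 (13.2 ± 2.95) came next, and their order differed by group. Max was above Ehmt1 in each GFP-positive library (16.2, 14.1 and 13.7 against 11.6, 11.2 and 9.08). It was below Ehmt1 in each GFP-negative one (11.2, 14.3 and 12.7 against 15.2, 15.6 and 16.4). Setdb1 (9.05), E2f6 (8.68), Cbx3 (8.50) and Pcgf6 (6.62) overlapped one another, followed by L3mbtl2 (5.20) and Rybp (4.04), which also overlapped. Mga (2.49 ± 0.688) was last, its highest library (3.42) below the lowest of L3mbtl2 (3.53) and within the range of Rybp. These are levels per length, and they cover named transcripts only.

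Unnamed spliced transcripts at the same loci, assembled by the authors, change this picture for Mga and Cbx3. At Mga 6 of them held 67.8% to 82.0% of the locus' FPKM in each library, and they reached up to 24784 bases upstream of the first named start. At Cbx3 a single one held 54.2% to 78.9% and began 3175 bases upstream, where it overlaps 2710 bases of the span of Hnrnpa2b1 on the opposite strand. Hnrnpa2b1 had a mean of 69.9 FPKM as deposited, and no source used here states the strand setting of the assembly. At Ehmt1 3 held 15.2% to 27.3%, at Rybp 1 held 8.94% to 41.2%, and the other 6 loci had none. Setdb1 shares 75 bases with Cers2 (52.9 FPKM) and L3mbtl2 shares 10020 bases with Chadl (0.271 FPKM), both on the opposite strand. On the same strand Rybp shares 13873 bases with Gm44044 (1.27 FPKM) and 15902 with Gm44045 (0.81 FPKM). Ehmt1 likewise shares 4419 bases with Gm37139 (0.742 FPKM) and 1798 with Gm38147 (1.26 FPKM).

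With these transcripts added, in a choice made after seeing the data, Ehmt1 was the single member of the 10 that passed, beside 29.4% of all features. Ehmt1 then read 13.5, 13.7 and 11.8 against 19.8, 21.6 and 21.8, a log2 difference of -0.68 (SE 0.21, adjusted p = 0.0446). Mga then read 10.4, 6.36 and 7.84 against 12.4, 9.45 and 9.60, and its groups now overlapped (log2 difference -0.35, adjusted p = 0.325). Cbx3 read 36.6, 15.6 and 24.9 against 17.4, 16.9 and 18.4 (log2 difference 0.46, adjusted p = 0.291). Rybp kept groups apart at -0.54 (adjusted p = 0.107), and Pcgf6 at 0.75 (adjusted p = 0.0915). The call of Ehmt1 depended on this choice. With the length trend removed as well, Ehmt1 was at -0.085 (adjusted p = 0.795) and none of the 10 passed, beside 16.5% of features. When unnamed transcripts of any kind were added at loci with a single gene name, Ehmt1 was at -0.59 (adjusted p = 0.0715) and none of the 10 passed, beside 30.3% of features.

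Transcript length moved with the comparison across the whole table. The median log2 difference of all features ran, by the length of the longest transcript, from 0.98 under 1 kb through 0.14 at 2 to 4 kb to -0.53 over 8 kb. Mga, Ehmt1 and Setdb1 are long (16372, 7065 and 5699 nt), and Max is short (1958 nt). With the length trend removed in each library, Mga stood at 0.04 and Ehmt1 at -0.03, while Rybp stayed at -0.47 (adjusted p = 0.268) and Pcgf6 at 0.74 (adjusted p = 0.154). None of the 10 passed, where 10.1% of features did. The part that length plays in the differences of Mga and Ehmt1 was otherwise not tested.

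Scaling moved the differences of all features together. When each library was brought to the same sum of FPKM, the median of all features moved to -0.90, and 42.2% of features passed, 7.21% of them higher, where the scaling by median of ratios gave 58.1% higher. Relative to that median the 4 members whose groups stood apart were at -0.60 (Mga), -0.82 (Rybp), -0.72 (Ehmt1) and 0.67 (Pcgf6), beside -0.59, -0.75, -0.57 and 0.77 relative to the median in the scaling used here. Relative to the median of all features, none of the 10 changed sign under the equal sum, quantile normalization or the values as deposited. The test called 5 members under the equal sum (all lower), 5 with limma's library weights where 61.1% of features passed, 2 with sums per assembled locus (31.3% passed), and 1 with the longest named transcript of each gene (11.6% passed).

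**Figure D2:**
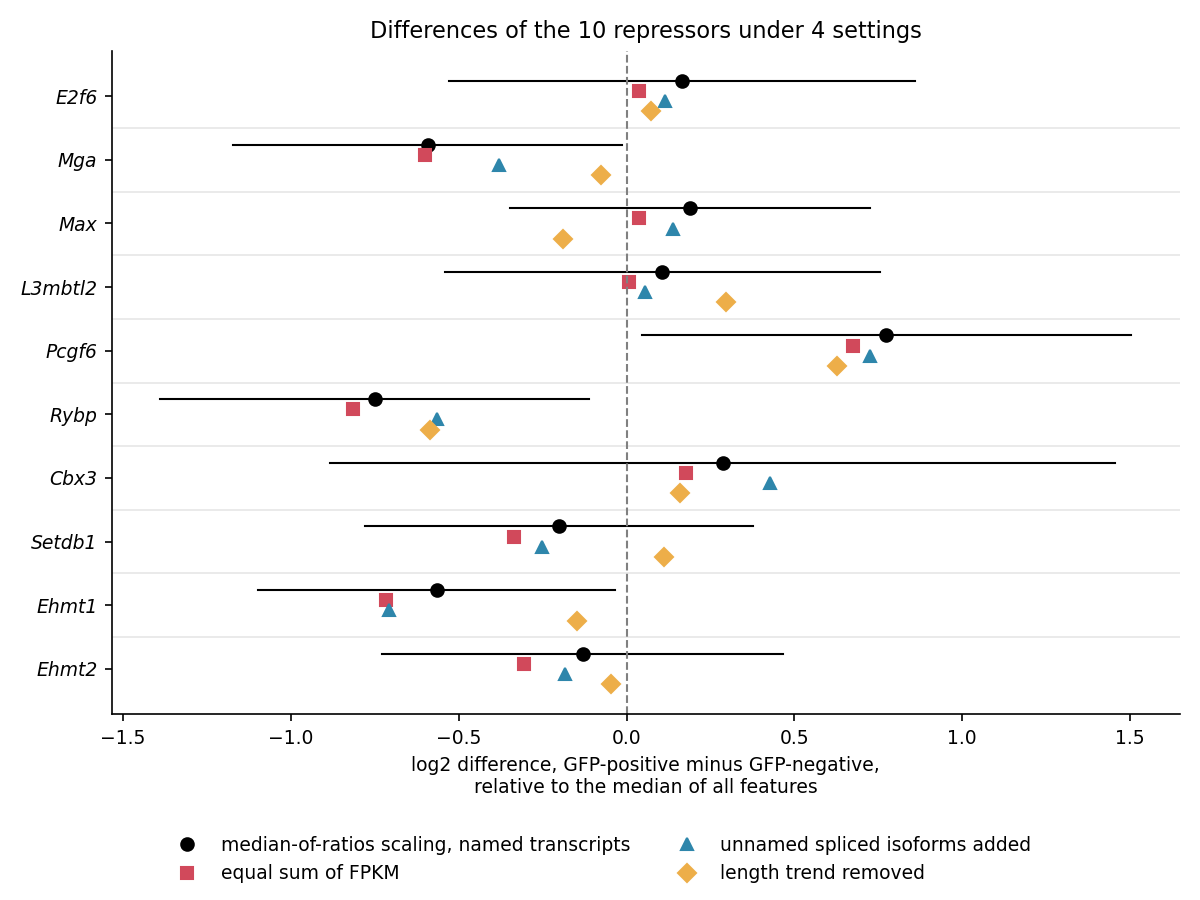
Log2 difference of each repressor, GFP-positive minus GFP-negative, less the median of all features, under 4 settings (symbols); the line is the 95% interval of the scaling by median of ratios. Pcgf6 stays right of 0 and Rybp left of 0 under all 4, while Mga and Ehmt1 move close to 0 once the length trend is removed.

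The mix of named transcripts within a gene was compared as well. Each share is a part of the FPKM of the gene's named transcripts. It leaves out the unnamed spliced ones, which held 67.8% to 82.0% of the FPKM at Mga and 54.2% to 78.9% at Cbx3. Of the 93 named transcripts of the 10 genes, 30 held at least 10% of their gene in either group, and for 5 of these the groups did not overlap, against 21.5% of all such transcripts. L3mbtl2 showed the widest gap. Its protein-coding transcript ENSMUST00000023029 held 88.3%, 76.7% and 86.6% of the gene in the GFP-positive libraries and 45.8%, 42.7% and 57.8% in the GFP-negative ones. The transcript ENSMUST00000172620, typed as retained intron in GENCODE M21, held 5.87%, 2.17% and 5.11% against 37.7%, 21.7% and 21.9%. The other 3 were a retained-intron transcript of E2f6 (9.99% ± 1.98 against 17.1% ± 2.12), one of Mga (13.4% ± 4.23 against 4.79% ± 3.13) and a coding transcript of Ehmt2 (20.8% ± 6.06 against 30.5% ± 3.67, all SD, n = 3).

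Summed over each gene, the retained-intron share was lower in every GFP-positive than in every GFP-negative library for 4 of the 10 members and higher for 1, where 16.5% and 10.8% of 7036 genes with retained-intron and coding transcripts did so (27.3% either way). For L3mbtl2 it was 9.92%, 4.98% and 8.55% against 41.3%, 23.5% and 25.1%. For Max it was 1.34%, 2.11% and 3.21% against 6.92%, 11.3% and 6.84%. E2f6 (15.8% ± 3.33 against 22.5% ± 1.58) and Ehmt1 (25.9% ± 7.53 against 37.9% ± 2.77) lay the same way, and Ehmt2 (4.76% ± 0.968 against 1.79% ± 0.36, SD, n = 3 each) the other way. Over all genes the median share was 7.98% to 9.13% in the GFP-positive and 8.45% to 11.0% in the GFP-negative libraries, which overlap. These shares are parts of named transcripts only. They rest on the authors' estimates of transcripts that share most of their exons, and they were not tested.

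**Figure D3:**
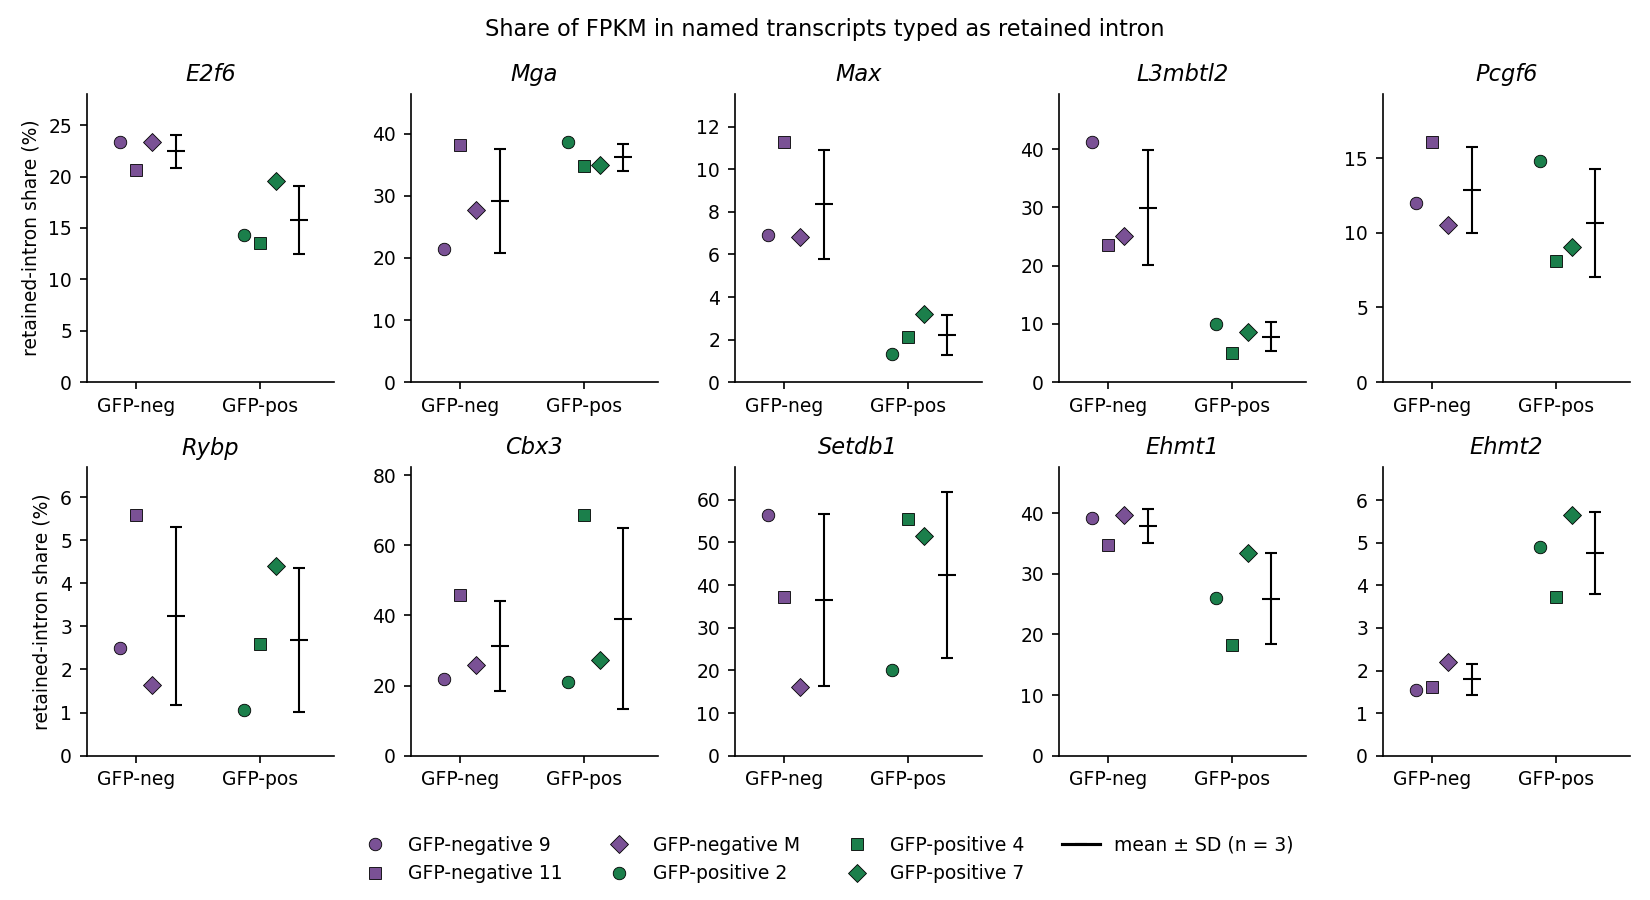
Percent of the FPKM of each repressor's named transcripts that lies in those typed as retained intron, by library (points) with mean ± SD. L3mbtl2, Max, E2f6 and Ehmt1 sit lower in all 3 GFP-positive libraries, Ehmt2 sits higher, and the other 5 overlap.

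Counting only transcripts typed as protein coding, a choice also made after seeing the data, none of the 10 passed, where 25.2% of 11519 genes did. On that measure L3mbtl2 read 4.42, 4.59 and 4.71 against 2.12, 2.98 and 3.86, and its groups no longer overlapped (log2 difference 0.57, adjusted p = 0.161). Max likewise read 14.9, 12.8 and 12.4 against 9.25, 10.2 and 10.1 (log2 difference 0.42, adjusted p = 0.205). Rybp was at -0.78 (adjusted p = 0.0685) and Pcgf6 at 0.78 (adjusted p = 0.0965). Ehmt1 kept groups apart at -0.32 (adjusted p = 0.361), while those of Mga now overlapped (-0.78, adjusted p = 0.141). E2f6 turned to -0.11 (adjusted p = 0.859). The share of all genes without overlap was not counted on this measure.

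Ratios between partner or paralogous genes within a library do not hang on how libraries are scaled, apart from the added 0.5. Of 9 ratios tested by an exact two-sided permutation test, 3 had groups that did not overlap, each at p = 0.1, the smallest that 3 against 3 libraries allow (adjusted p = 0.3 over the 9). Rybp to its paralog Yaf2, a subunit that takes the same place in the complex, differed most. The log2 ratio was -3.28, -2.84 and -3.60 in the GFP-positive libraries and -1.69, -0.16 and -1.15 in the GFP-negative ones, a difference of -2.24 (SE 0.50). With the length trend removed it was -1.68.

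Max to Mga differed by 0.78 (2.66 ± 0.142 against 1.88 ± 0.268, SD, n = 3 each), which turned to -0.12 with the length trend removed. Ehmt2 to Ehmt1 differed by 0.44 (SE 0.16), which fell to 0.10 with the length trend removed and turned to -1.08 when only the longest named transcript of each gene was taken. The other 6 ratios overlapped, with exact p-values of 0.2 to 0.9: E2f6 to E2f4, Pcgf6 to Pcgf1, Rnf2 to Ring1, Cbx3 to Cbx1, Cbx3 to Cbx5 and Setdb1 to Trim28.

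**Figure D4:**
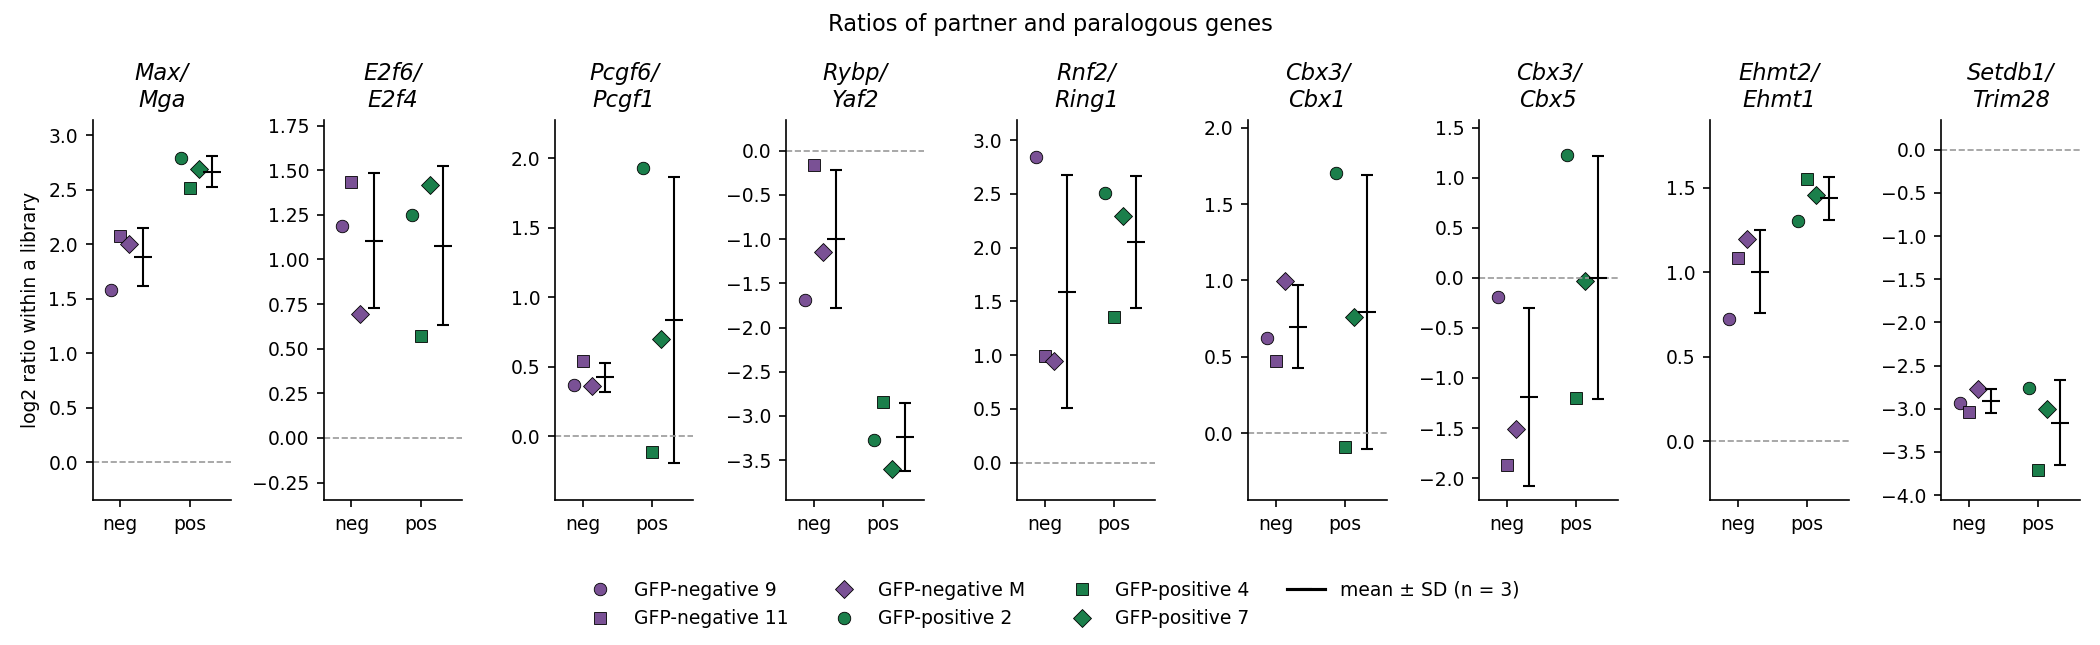
Log2 ratio of scaled FPKM + 0.5 between gene pairs in each library (points), with mean ± SD of the 3 GFP-negative and 3 GFP-positive libraries; each panel has its own axis and the dashed line marks equal levels. Max/Mga and Ehmt2/Ehmt1 are higher and Rybp/Yaf2 lower in all 3 GFP-positive libraries.

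The further subunits of PRC1.6 were 8 genes, of which 1 rose and 0 fell (median log2 difference 0.67, where 11.9% of all features rose and 8.55% fell). The riser was Yaf2, at 33.1, 29.9 and 31.2 against 18.8, 5.92 and 10.9 (log2 difference 1.51, SE 0.39, adjusted p = 0.0334). Hdac2 (0.91, adjusted p = 0.0738) and Hdac1 (-0.64, adjusted p = 0.0857), the deacetylases of the complex, differed with opposite sign and did not pass. Of 18 subunits of other PRC1 variants 0 rose and 4 fell (median -0.50): Fbrs (-1.93), Auts2 (-0.98), and the BCOR-complex genes Bcorl1 (-1.41) and Bcor (-1.25). Of 11 PRC2 genes 1 fell (median -0.22), Jarid2, a cofactor that guides PRC2 to DNA, at -1.42 (adjusted p = 0.0166).

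Around the H3 lysine 9 enzymes 14 partners and readers held 4 rises and 2 falls (median -0.02). Over all features 11.9% rose and 8.55% fell. Wiz, a zinc finger partner of EHMT1 and EHMT2, read 1.71, 1.47 and 0.987 against 5.37, 10.1 and 8.99 and fell (log2 difference -2.17, SE 0.32, adjusted p = 0.0108). Suv39h1, the methyltransferase of constitutive heterochromatin, read 15.3, 15.7 and 15.9 against 5.09, 7.83 and 6.38 and rose by 1.24 (SE 0.25, adjusted p = 0.0179). Its paralog Suv39h2 rose by 1.63 (adjusted p = 0.0290) and Setdb2, a relative of Setdb1, by 1.22 (adjusted p = 0.0416). Trim28, the corepressor that brings in SETDB1, was at 0.06 (adjusted p = 0.893). Of 9 H3 lysine 9 demethylases 0 rose and 3 fell (median -0.80): Phf2 (-2.10), Kdm4a (-1.58) and Kdm1a (-0.80).

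Among 11 other members of the MAX network 1 rose and 4 fell (median -0.31), again beside 11.9% and 8.55% of all features. Myc, the activator that competes for MAX, read 1.23, 2.39 and 2.00 against 11.2, 22.8 and 13.2 and fell by 2.74 (SE 0.35, adjusted p = 0.00969). Mnt, a repressor that also pairs with MAX, fell by 1.61, Mlxip fell by 2.41, and Mlx rose by 1.15. Of 7 other E2F genes 6 were tested and 1 rose, E2f5 (1.20, adjusted p = 0.0268).

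The 18 genes named from these partner lists were picked because they passed in the fit of these same 6 libraries. They kept their sign under each scaling tried, with the length trend removed, and without each library in turn. After such a choice this is no separate support. The calls of these 18 genes were less stable. With the length trend removed 6 of the 18 passed (Fbrs, Wiz, Suv39h1, Suv39h2, Myc and Mnt), beside 10.1% of all features, which were not picked by a call. The 3 demethylases, Yaf2, E2f5 and the PRC2 gene did not pass there. With no filter, where 2.96% of features passed, the demethylase, E2F and further PRC1.6 lists held 0 calls, the other PRC1, PRC2 and MAX network lists 1 fall each, and the H3K9 partners 1 rise and 1 fall. With an equal sum of FPKM the 6 rises did not pass (Yaf2 0.44, Suv39h1 0.19, Suv39h2 0.81, Setdb2 0.33, Mlx 0.09 and E2f5 0.18). Without GFP-positive 2, GFP-positive 4 or GFP-negative 11, the numbers that passed were 6, 8 and 6. None of the 18 passed without GFP-positive 7 or without GFP-negative M, where 39 and 37 features passed in all (0.207% and 0.195%).

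The germline genes known as targets of these repressors were 24, of which 18 passed the filter. The list was chosen with earlier results of these data known, so the shares of all features beside it are description only. Of these 18, 14 rose and 0 fell (median log2 difference 2.36), where 11.9% of all features rose and 8.55% fell. Because the filter keeps genes that are high in either group, the whole list is also given: 20 of the 24 had a mean of at least 0.5 in the GFP-positive libraries and 2 in the GFP-negative ones. With no filter 5 of the 24 rose and 0 fell, beside 2.96% of features called. Higher without overlap were 17 of the 24, counted with no filter. Of the features that passed the filter 22.4% were. The 6 below the filter were Smc1b, Sycp1, Meioc, Majin, Brdt and Dmc1. Their summed level with the rest was 239, 55.4 and 91.4 in GFP-positive 2, 4 and 7 and 4.25, 2.85 and 7.29 in GFP-negative 9, 11 and M.

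Tex101, a germ cell surface protein, read 31.3, 13.2 and 16.3 against 0.143, 0.188 and 0.113 and rose by 4.91 (SE 0.35, adjusted p = 0.00305). Mael, a piRNA pathway protein, read 50.3, 9.34 and 16.5 against 0.381, 0.160 and 0.523 (4.60, adjusted p = 0.00964). Taf7l, a germ cell form of a TFIID subunit, read 24.4, 4.69 and 9.18 against 0.367, 0.0958 and 0.274 (3.87, adjusted p = 0.0105).

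Tuba3b, whose promoter is printed above, rose by 2.33 (adjusted p = 0.0102), but Tuba3a is a close paralog, and how reads were divided between them was not measured here. Of the other printed promoters, Ddx4 rose by 2.61 (adjusted p = 0.0156), Hormad1 by 2.33 (adjusted p = 0.0339) and Sycp3 by 2.03 (adjusted p = 0.0351). The count of 14 went to 1 (Tex101) without GFP-positive 7 or GFP-negative M, to 8 without GFP-negative 11, and to 6 with the longest named transcript only.

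**Figure D5:**
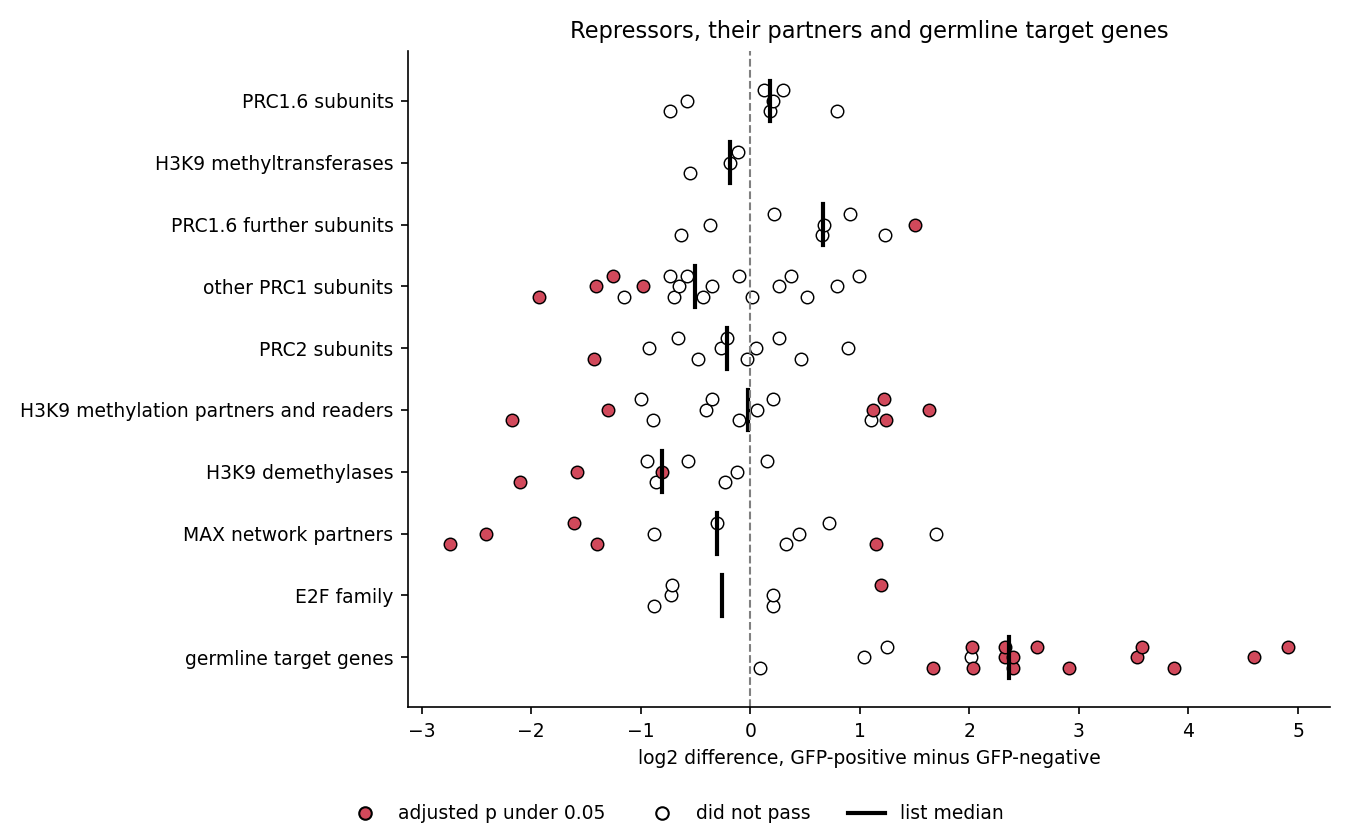
Log2 difference, GFP-positive minus GFP-negative, of each tested gene (points) in the repressor lists, their partner lists and the germline target genes; filled points passed at an adjusted p under 0.05 and bars are list medians. The 10 repressors scatter around 0 with no filled point. Of the 18 tested target genes 14 are filled and lie right of 0, beside 11.9% of all features called higher. The filter keeps genes that are high in either group, and with no filter 5 of the 24 target genes rose. The lists were chosen with earlier results of these data known.

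Markers of germ cells moved with the target genes. Of 12 such markers 12 had a mean of at least 0.5 in the GFP-positive and 1 in the GFP-negative libraries, and 7 of the 10 tested rose, beside 11.9% of all features; Ddx4, Dazl and Sycp3 stand on both lists. With no filter 1 of the 12 rose, beside 2.96% of features called. Higher without overlap were 8 of the 12, where 22.4% of the features that passed the filter were. That share leaves out low features, while the 8 were counted over all 12 markers. Their summed level was 92.0 to 115 against 91.3 to 99.7. Uchl1 made up most of it in 5 libraries (73.4 to 99.7), while in GFP-positive 2 Uchl1 read 19.0 and Dazl 50.8. The spermatid markers Prm1, Prm2 and Tnp2 were at 0 in all 6 libraries. The part of germ cells in the rise of the target genes was not tested.

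Of 12 Sertoli markers 11 passed the filter (all but Rhox5) and their summed level was 1880 to 3710 against 817 to 3490; Dmrt1 rose, and Sox9 and Gata4 fell. Of other cell types 1 marker fell, the macrophage gene Lyz2. The summed fibroblast markers were 10.7 to 19.1 in the GFP-positive libraries and 16.2, 709 and 148 in GFP-negative 9, 11 and M, with Col1a1 at 2.46 to 7.95 against 9.85, 687 and 140 (log2 difference -4.21, adjusted p = 0.0536). The myoid markers Myh11 (-2.47) and Actg2 (-2.15), the Leydig marker Insl3 (-1.62) and the endothelial marker Cdh5 (-0.88) were lower without overlap and did not pass. Summed levels overlapped for the myoid (133 to 1900 against 323 to 873) and Leydig lists (35.8 to 88.0 against 69.8 to 86.2) and stood apart for the macrophage (1.78 to 2.34 against 3.62 to 8.60) and endothelial lists (3.56 to 6.48 against 7.50 to 12.5). Of the 5 macrophage and 5 endothelial markers 2 and 1 passed the filter. The part of these cell types in the results was not tested. Libraries held 8.25 to 11.8 Gb of aligned bases, more in each GFP-positive library (11.2 or above) than in any GFP-negative one (10.02 or below). A single transcript took 19.1% to 29.1% of the FPKM in the GFP-positive libraries and 8.75% to 18.3% in the GFP-negative ones. The summed FPKM was 668557 to 747404 against 292449 to 470070, so both measures stood apart by group. Unnamed transcripts took 38.0% to 50.5% against 29.9% to 40.1%, which overlap. The part of this make-up of the libraries in the results was not tested. GFP-negative 9 lay between the other GFP-negative and the GFP-positive libraries on the leading axis of a principal component analysis (57.9% of variance). Without it 5811 features passed in place of 3862 (30.6% of those tested), and none of the 10 repressors.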

How the data were processed

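Total RNA was sequenced in 6 Sertoli cell libraries; per the labels' protocols ribosomal RNA was removed and libraries were strand-specific (dUTP). Reads were processed with Trimmomatic, HISAT2 and StringTie on mm39, per the submitters' processing notes; versions and the strand setting are not given in the sources used here. The authors' deposited tables give FPKM for 153503 transcripts and per-base coverage signal, per the file headers; coverage over FPKM gave aligned bases. With no read counts, intervals cover the spread between libraries only.

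FPKM was summed per gene name, with 12776 unnamed transcripts summed per locus. Median-of-ratios scaling used features with a mean FPKM of at least 1. Features under 200 nt or a mean of 0.5 were left out, and log2(scaled FPKM + 0.5) was tested with limma 3.58.1 in R 4.3.3 (lmFit, eBayes with trend; Benjamini-Hochberg, 0.05), GFP-positive minus GFP-negative. Ratios used an exact permutation test written in Python 3.11.15, and the 95% intervals of the members used scipy 1.17.1. The method was also run on simulated features with independent noise and no shared library effect or length trend. That run cannot show how such effects act on the calls. Biotypes came from GENCODE M21 by transcript identifier, and promoters from RefSeq (GRCm38.p6), whose coordinates were kept apart from the mm39 ones.

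The members and gene lists were chosen with earlier results of these data known. Named are the members, both genes of each pair, and up to 4 called genes per list by adjusted p; Hdac1, Hdac2, Trim28, Ddx4, Hormad1 and Sycp3 were named beside them after their values were seen. Alternatives varied the pseudocount, filter, scaling, variance model, weights, gene definition, length trend and libraries; 3 were added after the data were seen.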

Additional observations from a re-analysis of the deposited data

How the results depend on the processing

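The count of 3862 called features was 1119 with no filter, 8201 with an equal sum of FPKM, 11564 with limma's arrayWeights (which stopped before it converged), 1913 with the length trend removed and 1813 with the longest named transcript only; leaving out 1 library gave 37 to 5811. The count of members called was 0 in the fit reported and 0 without any 1 library. It was 5 with an equal sum of FPKM (Mga, Rybp, Setdb1, Ehmt1 and Ehmt2, all lower), 5 with arrayWeights (Mga, Pcgf6, Rybp, Ehmt1 and Ehmt2), 2 with sums per assembled locus (Rybp -0.75 and Ehmt1 -0.73), 1 with the longest named transcript (L3mbtl2) and 1 with unnamed spliced isoforms (Ehmt1).

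These log2 differences changed sign. With an equal sum of FPKM, which moved the median of all features to -0.90, E2f6 was -0.86, Max -0.86, L3mbtl2 -0.89, Pcgf6 -0.22 and Cbx3 -0.72; relative to that median these 5 stayed positive (0.007 to 0.67). With the length trend removed Mga was 0.039, Max -0.076, Setdb1 0.23 and Ehmt2 0.067, and with unnamed isoforms added as well Mga 0.34, Max -0.091, Setdb1 0.21 and Ehmt2 0.043. These settings moved the median of all features to 0.113 and 0.122. Relative to that median Ehmt2 stayed negative in both (-0.047 and -0.079), and Mga in the former (-0.075). Max and Setdb1 changed sign relative to it in both, and Mga in the latter (0.221). With the longest transcript only E2f6 was -0.40, L3mbtl2 -1.28 and Setdb1 0.15, and with coding transcripts only E2f6 was -0.11. Leaving out 1 library at a time gave -0.16 to 0.93 for Cbx3 (lowest without GFP-positive 2), -0.29 to 0.003 for Ehmt2 (highest without GFP-positive 7), -0.048 to 0.36 for E2f6 and -0.10 to 0.27 for L3mbtl2 (both lowest without GFP-negative 9).

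Ratios that changed sign were, with the length trend removed, Max/Mga (-0.12), E2f6/E2f4 (0.19) and Setdb1/Trim28 (0.13); with the longest transcript, Ehmt2/Ehmt1 (-1.08) and Setdb1/Trim28 (0.057); with locus sums, E2f6/E2f4 (0.087). Leaving out 1 library at a time gave -0.13 to 0.89 for Pcgf6/Pcgf1, -0.36 to 0.53 for Cbx3/Cbx1 (both lowest without GFP-positive 2), -0.23 to 0.23 for E2f6/E2f4 and -0.45 to 0.027 for Setdb1/Trim28 (both highest without GFP-positive 4). The cause of these changes was not tested.

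Rybp and Ehmt1 kept a negative sign under every alternative that gave a value, 22 for Rybp (-1.71 to -0.17) and 21 for Ehmt1 (-1.61 to -0.03). Other members kept their side of the threshold under all but the settings named here. No paired analysis was possible because the groups share no replicate number. FPKM carries no read counts, so the limit that depth sets on low levels, such as those of Mga's named transcripts, is not quantified.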
